A study of Gallus gallus with 10 samples.

Results

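The mitochondrial ribosomal protein genes of the embryonic chicken heart were taken as every gene whose symbol on the platform annotation began with MRPL or MRPS and a number, with 1 probe set per gene, the one with the highest mean level over all arrays. This gave 67 members of 13009 named genes on the array, read from 96 probe sets. By name, 43 belonged to the large subunit (MRPL) and 24 to the small subunit (MRPS). By RefSeq's gene table (assembly GRCg7b), 62 members lay on 21 autosomes and 5 on Z. That table held 73 genes with such symbols, 67 of them members, and MRPL35, MRPL36, MRPL49, MRPS15, MRPS18C and MRPS24 were not analysed here.

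The study profiled whole hearts of chicken (Gallus gallus) embryos on 10 single-colour arrays, with total RNA pooled from males on 5 (male A to E) and RNA pooled from females on 5 (female A to E). The labels name a harvest and no other treatment, strain or genotype, and embryo age and pool size are not known here. Male birds carry a pair of Z chromosomes and female birds a Z and a W, so males against females asks how far each gene follows sex and Z copy number. The pools are taken as separate samples, and p-values measure the spread between them, which may be partly technical.

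Mitochondria make a small set of respiratory chain proteins from their own genome on a ribosome of their own. Its ribosomal RNAs are encoded in mitochondrial DNA, while all of its proteins are encoded in the nucleus, made in the cytosol and imported. Some of these proteins have a counterpart in the bacterial ribosome and others are found only in mitochondria. The heart depends heavily on oxidative phosphorylation, and inherited defects of mitochondrial ribosomal proteins such as MRPL3, MRPL44 and MRPS22 cause cardiomyopathy in humans. The names do not always give the place of a protein: in structures of the mammalian mitochondrial ribosome, the proteins of MRPS30 and MRPS18A sit in the large subunit, and the protein of MRPS36 is now known, from work in yeast and mammals, as part of the 2-oxoglutarate dehydrogenase complex.

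The 5 members on Z were all higher in males, and no autosomal member was called in either direction. Values were compared as log2(intensity + 16) in limma over 23063 probe sets, where a ratio is male minus female on that scale and a gene is called at a Benjamini-Hochberg adjusted p below 0.05. Of the 67 members, 64 lay above the filter on dim probe sets. Among these, 5 were called higher in males, where 1.99% of all 10284 genes tested were called so, and 0 were called higher in females, where 0.233% of all genes were. On Z the count was 5 of 5, and 40.9% of the 492 Z genes tested were called higher in males. On autosomes it was 0 of 59 in limma, and 0.164% of 9765 autosomal genes were called in either direction. At an unadjusted p below 0.05 there were 11 autosomal members, or 18.6%, each with females higher. The share of all autosomal genes was 7.25%, not matched for level. Whole hearts were measured, so fewer cells of a type and less RNA per cell cannot be told apart.

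MRPS30, also known as PDCD9, had the largest ratio of the members. Its intensities in males A to E were 14278, 14476, 14305, 13887 and 14113, and in females A to E 8864, 7217, 7554, 5944 and 6914. Every male array lay above every female array, as in all 5 Z members, and the male arrays lay closer together than the female ones. Of the 492 Z genes tested, 233 had arrays that did not overlap between the sexes, 6 of them with females higher. Male arrays averaged 14212 ± 223 and female arrays 7299 ± 1061 (SD, 5 of each), a 1.96-fold difference with a log2 ratio of 0.97 ± 0.09 (SE, limma adjusted p = 4.49e-06).

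MRPL17, whose protein is the counterpart of bacterial ribosomal protein L17, followed. Its intensities in males A to E were 18301, 17435, 16998, 20685 and 18715, and in females A to E 9312, 9786, 9329, 11650 and 10036. The groups did not overlap, and array D was the highest of each sex. The ratio was 0.88 ± 0.07, or 1.84-fold (SE, limma adjusted p = 2.81e-06). Its other tested probe sets gave ratios of 0.81 and 0.81.

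MRPL50 encodes a large subunit protein that bacteria lack. In males A to E it measured 19927, 19307, 20714, 20346 and 19095, and in females A to E 12639, 11447, 11425, 12343 and 11509. The sexes lay far apart compared with their spread, the male mean being 19878 ± 682 and the female mean 11873 ± 575 (SD over 5 arrays). The ratio was 0.74 ± 0.05, or 1.67-fold (SE, limma adjusted p = 7.48e-07). A second, dimmer probe set of MRPL50 gave 0.82 ± 0.20 and did not pass (limma adjusted p = 0.0613).

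MRPS36 and MRPS27 had the smallest ratios of the Z members. MRPS36, the gene with the reassigned protein, measured 34250, 32924, 36780, 37615 and 36532 in males A to E and 25260, 24046, 23410, 24171 and 24700 in females A to E. Its ratio was 0.55 ± 0.05, or 1.46-fold (SE, limma adjusted p = 9.85e-06). MRPS27 encodes a small subunit protein of the pentatricopeptide repeat family, which binds RNA. It measured 22923, 20531, 21317, 21537 and 23006 in males A to E and 13859, 16362, 14843, 15110 and 15718 in females A to E. In both genes the lowest male array exceeded the highest female array. The ratio of MRPS27 was 0.53 ± 0.06, or 1.44-fold (SE, limma adjusted p = 5.19e-05), and its other probe set was under the filter.

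**Figure D1:**
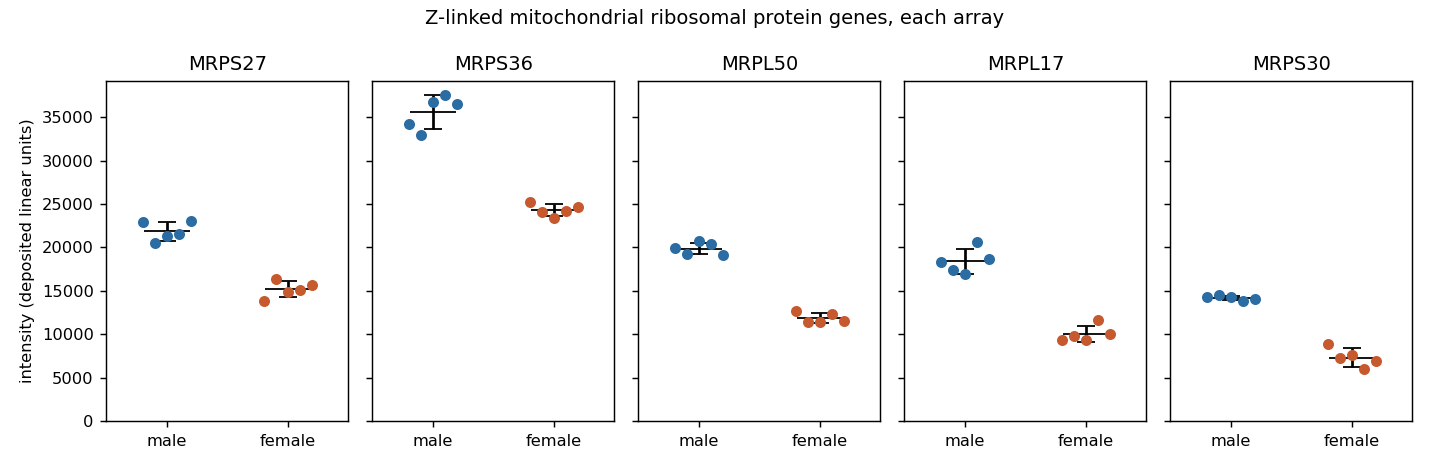
Intensity (deposited linear units, vertical axis from 0) of the 5 Z members in each male and each female pool, with 1 point per array in the order A to E and bars for the mean and SD of 5 arrays. In each gene the 5 male points lie above the 5 female points, from MRPS27 at 1.44-fold to MRPS30 at 1.96-fold. Of all 492 Z genes tested, 233 had no overlap of the sexes, 6 of them with females higher.

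The ratios of the Z members, from the chosen probe sets, were also read against a full doubling, which is a log2 ratio of 1. The 95% intervals of MRPS30 (0.79 to 1.15) and MRPL17 (0.72 to 1.04) included 1. Those of MRPL50 (0.63 to 0.86), MRPS36 (0.44 to 0.66) and MRPS27 (0.40 to 0.65) lay below it. This does not separate MRPL17 from MRPL50, whose ratios the pair test given next did not tell apart. The other tested probe sets of MRPL17 also had lower ratios than the chosen one, 0.81 ± 0.08 and 0.81 ± 0.07 (SE). The second, dimmer probe set of MRPL50 had a higher ratio than its chosen one, 0.82 ± 0.20 (SE). The places of MRPL17 and MRPL50 around 1 therefore hold for the chosen probe sets only. The ratios also fell as the level rose, apart from the order of MRPS27 and MRPS36. Mean male intensities were 14212 for MRPS30, 18427 for MRPL17, 19878 for MRPL50, 21863 for MRPS27 and 35620 for MRPS36. Whether level affects these ratios, or the differences between them given next, was not tested.

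Whether the Z members differed from each other was tested with the log2 difference of a pair of genes on each array, compared between the sexes by an exact permutation test (two-sided) over the 252 arrangements of the arrays. There were 10 pairs, the p-values were adjusted over them, and the test was added after the ratios were known. It passed for 7 pairs. The ratio of MRPS30 exceeded that of MRPS27 by 0.44 ± 0.13 (SE, exact test, adjusted p = 0.0397, n = 5 per sex) and that of MRPS36 by 0.42 ± 0.10 (exact test, adjusted p = 0.0265). MRPL17 exceeded MRPS27 by 0.35 ± 0.08 (exact test, adjusted p = 0.0265) and MRPS36 by 0.33 ± 0.08 (exact test, adjusted p = 0.0397). MRPL50 lay between these groups. It exceeded MRPS36 by 0.19 ± 0.04 (exact test, adjusted p = 0.0265) and MRPS27 by 0.22 ± 0.08 (exact test, adjusted p = 0.0454), and MRPS30 exceeded it, with a difference of -0.23 ± 0.10 (exact test, adjusted p = 0.0397). The pairs that did not pass were MRPL17 with MRPL50 at 0.14 ± 0.08, MRPL17 with MRPS30 at -0.09 ± 0.16 and MRPS27 with MRPS36 at -0.02 ± 0.07 (exact test, adjusted p = 0.159, 0.688 and 0.770).

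Leaving out an array leaves fewer arrangements, but the smallest p the exact test can give stays the same. Without male B or without male D none of the 7 passed (exact test, adjusted p of 0.0529 to 0.0907), while the sizes moved little. MRPL17 minus MRPS27 was 0.35 without male B and 0.30 without male D, and MRPS30 minus MRPS36 was 0.39 and 0.45. The call of MRPL50 over MRPS27 was lost in 9 of 10 fits that left out 1 array, kept only without female A, and that of MRPS30 over MRPL50 in 6, without any one of the male arrays or without female D. Without female D the difference of MRPL50 and MRPS30 was -0.14 in place of -0.23. That of MRPS30 over MRPS27 was also lost without male C. With the mean of each gene's tested probe sets, MRPL50 no longer passed against MRPS27 (0.25, adjusted p = 0.0926) or MRPS30 (-0.19, adjusted p = 0.159).

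The Z members stood in the upper part of the Z genes by ratio, whose median was 0.40 with an interquartile range of 0.18 to 0.66. The median of the 5 members was 0.74. Of the 492 Z genes, 21 had a larger ratio than MRPS30, 46 than MRPL17, 90 than MRPL50, 169 than MRPS36 and 180 than MRPS27. The members were also among the brighter probe sets. Among the 62 other Z genes whose mean levels lay within the range of the 5 members, a comparison added with the values known, 67.7% were called with males higher and the median ratio was 0.54, with an interquartile range of 0.18 to 0.79.

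The nearest tested genes beside each Z member, in the order of the GRCg7b table, differed from member to member. Beside MRPS36, the centromere gene CENPH and the cyclin-dependent kinase gene CDK7 had ratios of 0.92 and 0.71, both called. Beside MRPS27, PTCD2, a gene of mitochondrial RNA handling, was called at 0.66, while the neuronal cytoskeleton gene MAP1B was at 0.22 ± 0.32 and did not pass. MRPL50 lay between RNF20, a ubiquitin ligase gene that was called at 0.36, and PLPPR1 at -0.18 ± 0.35. The genes beside MRPL17 were ARHGEF39 at 0.39 ± 0.10 and CCBE1 at 0.52 ± 0.23, and those beside MRPS30 were the growth factor gene FGF10 at 0.23 ± 0.33 and EMB at -0.05 ± 0.22, none of them called (limma adjusted p of 0.0928 to 0.976). The largest member ratio, that of MRPS30, thus lay between a pair of genes with small and imprecise ratios.

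The autosomal members had ratios slightly below 0 as a group, with no member past the threshold. Of the 59 tested, 50 lay below 0 and 9 above, 84.7% below where 58.5% of all autosomal genes were. Their median ratio was -0.10, with an interquartile range of -0.15 to -0.04, against a median of -0.03 and quartiles of -0.12 and 0.06 for autosomal genes at large. The ratios of the members ran from -0.21 to 0.07, a band whose lower end is a female over male fold of 1.15. The median SE was 0.07, and for 56 of the 59 the 95% interval lay within -0.5 and 0.5. Among all genes the smallest called ratio had a size of 0.23. In the middle range of levels of the autosomal members, chosen after the values were seen, 29 members had a median of -0.06 with 75.9% below 0, and 1825 other autosomal genes had a median of -0.02 with 59.3% below 0. The quartiles were -0.12 and -0.01 for these members and -0.08 and 0.04 for those other genes, so the spread was alike.

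**Figure D2:**
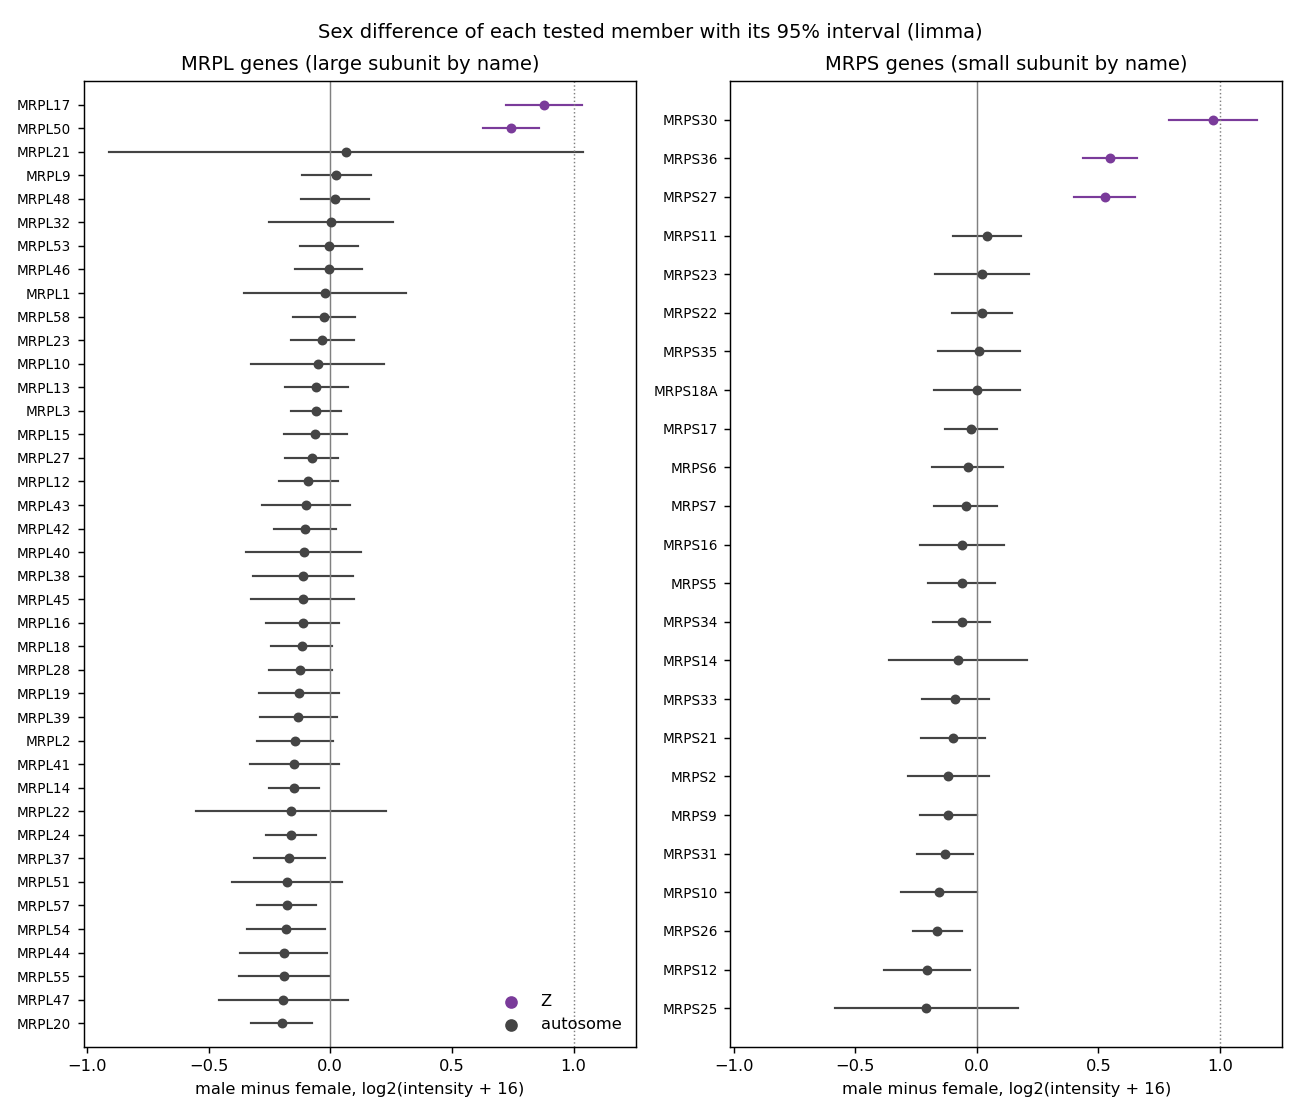
Male minus female ratio of each of the 64 tested members on the log2(intensity + 16) scale (horizontal axis), with limma's 95% interval, for MRPL genes on the left and MRPS genes on the right. The 5 Z members lie between 0.53 and 0.97, the autosomal members between -0.21 and 0.07, and the dotted line marks a doubling.

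**Figure D3:**
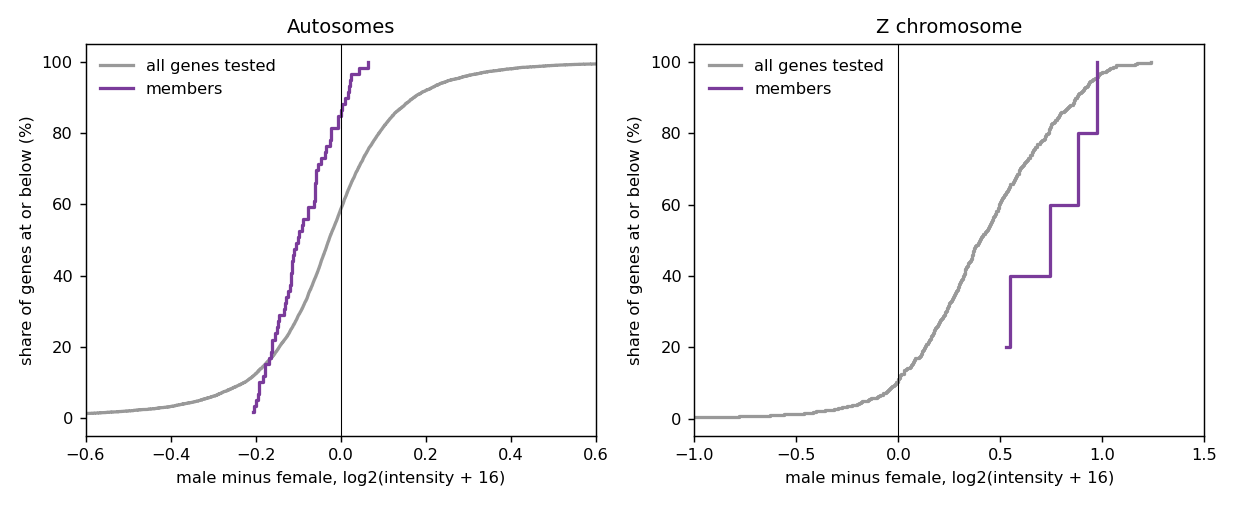
Share of genes (percent, vertical axis) at or below each male minus female log2 ratio (horizontal axis), for members and for all genes tested, on autosomes (left) and on Z (right). The members' median is -0.10 against -0.03 on autosomes and 0.74 against 0.40 on Z.

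For 5 autosomal members the arrays of the sexes did not overlap, each with females higher. This is 8.47% of the 59, where 1.23% of all autosomal genes met the rule, a share not matched for level. MRPS26, a small subunit protein of mitochondria only, measured 23362, 22423, 23935, 23735 and 22328 in males A to E and 25049, 25589, 25959, 26380 and 26625 in females A to E. Its ratio of -0.16 ± 0.05 did not pass (SE, limma adjusted p = 0.153, n = 5 per sex). MRPL24, the counterpart of a bacterial protein near the exit of the peptide tunnel, averaged 19805 ± 611 on male and 22163 ± 632 on female arrays (SD, n = 5 each), with a ratio of -0.16 ± 0.05 (limma adjusted p = 0.173). MRPL57, found only in mitochondria, averaged 13936 ± 544 and 15788 ± 888, with a ratio of -0.18 ± 0.06 (limma adjusted p = 0.224). The remaining pair had smaller ratios. MRPL14, whose protein lies at the interface of the subunits, averaged 29619 ± 961 in males and 32866 ± 1304 in females, a ratio of -0.15 ± 0.05 (limma adjusted p = 0.241). MRPS31 averaged 20553 ± 731 and 22503 ± 1285, a ratio of -0.13 ± 0.05 (limma adjusted p = 0.461). The lowest female array stood just above the highest male array in MRPS31, at 21788 against 21680.

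The lowest ratios of the autosomal members were those of MRPS25 and MRPS12, both of the small subunit. MRPS25 measured 3766, 2396, 2867, 2835 and 1707 in males A to E and 2829, 2944, 2648, 4065 and 2875 in females A to E. Its ratio of -0.21 ± 0.18 was imprecise, as the arrays overlapped widely (limma adjusted p = 0.797). Single arrays moved it: it was -0.34 without male A, -0.05 without male E and -0.10 without female D, so its place among the lowest rests on them. MRPS12, the counterpart of a protein of the bacterial decoding centre, ran from 5243 to 6120 in males and from 5371 to 7030 in females, a ratio of -0.20 ± 0.08 (limma adjusted p = 0.439). MRPL20, the counterpart of bacterial L20, was at -0.20 ± 0.06 (limma adjusted p = 0.161). It averaged 15279 ± 755 in males and 17555 ± 1025 in females, and only female E, at 16075, lay within the range of the males.

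The other members with the lowest ratios belonged to the large subunit. MRPL44, which has a fold related to ribonuclease III and is a human cardiomyopathy gene, averaged 14220 ± 1234 in males and 16288 ± 1984 in females, a ratio of -0.19 ± 0.08 (limma adjusted p = 0.505). MRPL47, the counterpart of a bacterial protein at the tunnel exit, was at -0.19 ± 0.12, and MRPL55 and MRPL54, of mitochondria only, were at -0.19 ± 0.09 and -0.18 ± 0.07. In each of these 4 genes the arrays of the sexes overlapped.

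At the other end, the highest ratios of autosomal members were all close to 0. MRPS11 was at 0.04 ± 0.07, MRPL9 at 0.02 ± 0.07, MRPS23 at 0.02 ± 0.09, MRPS22 at 0.02 ± 0.06, MRPL48 at 0.02 ± 0.07 and MRPS35 at 0.01 ± 0.08. MRPL32, whose protein is matured by a mitochondrial inner membrane protease in yeast and mouse, was at 0.00 ± 0.12. It ran from 6900 to 7900 in males and from 5779 to 9229 in females, so the female arrays spread on both sides of the male ones. MRPL21 had the highest value, 0.07 ± 0.46, from dim and scattered arrays between 311 and 742 in males and between 119 and 999 in females. None of these 8 passed (limma adjusted p of 0.901 to 0.996).

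The other 26 autosomal MRPL members, MRPL1, MRPL2, MRPL3, MRPL10, MRPL12, MRPL13, MRPL15, MRPL16, MRPL18, MRPL19, MRPL22, MRPL23, MRPL27, MRPL28, MRPL37 to MRPL43, MRPL45, MRPL46, MRPL51, MRPL53 and MRPL58, had ratios from -0.18 to -0.01, each below 0. Beside MRPS16, described next, the other 12 autosomal MRPS members, MRPS2, MRPS5, MRPS6, MRPS7, MRPS9, MRPS10, MRPS14, MRPS17, MRPS18A, MRPS21, MRPS33 and MRPS34, had ratios from -0.15 to 0.00. Of these, 3 are given for their roles, picked with their values known. MRPL58, a peptidyl-tRNA hydrolase built into the large subunit, was at -0.03 ± 0.06, and MRPL12, of the stalk that recruits translation factors, at -0.09 ± 0.06. The cardiomyopathy gene MRPL3 was at -0.06 ± 0.05. The lowest limma adjusted p among these 38 was 0.439. MRPS11 and MRPL46 lie next to each other on chromosome 10 and had ratios of 0.04 and -0.01.

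Members with several probe sets mostly gave like ratios. Of 14 members with at least 2 tested probe sets, 12 had ratios within 0.2 of each other. In MRPS16 the 4 tested probe sets ran from -0.21 to 0.91. The chosen one was at -0.06 ± 0.08, and the dimmest, with means of 838 in males and 581 in females, was at 0.91 ± 0.48. In MRPL20 the chosen probe set was at -0.20 and 3 dimmer ones, with means between 412 and 793, at 0.26 ± 0.45, 0.30 ± 0.29 and 0.74 ± 0.43. MRPL30, MRPL33 and MRPL34, all of the large subunit, were under the filter and were not tested.

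By name, large and small subunit members had ratios in the same band. The 38 autosomal MRPL members had a median ratio of -0.11, with 34 below 0, and the 21 autosomal MRPS members a median of -0.06, with 16 below 0. With MRPS18A counted in the large subunit, the medians were -0.11 and -0.07. On each array, the median deviation of the large subunit genes from their own means, less that of the small subunit genes, averaged -0.02 ± 0.02 on the male and 0.01 ± 0.05 on the female arrays (SD, n = 5 each). The ranges overlapped, from -0.05 to 0.01 in males and from -0.03 to 0.09 in females. Of the 5 Z members, MRPL17 and MRPL50 are of the large subunit by name, and MRPS30 also sits there, while MRPS27 is the single Z member known to sit in the small subunit.

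Z and autosomal members lay far apart within each array. The median deviation of the Z members, less that of the autosomal members, ran from 0.37 to 0.45 in males and from -0.50 to -0.31 in females, with means of 0.40 ± 0.04 and -0.41 ± 0.07 (SD, n = 5 each). The difference of these means was 0.81 log2 units, a description without a test since it rests on members chosen as a set. It measures the relative level of the transcripts of the Z members against those of the other members, not of the proteins.

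Across single arrays, the autosomal members moved together to a degree. In male B, 7 of the 59 lay above their own mean over the 10 arrays, in male D 14, in male C 17, in male E 23 and in male A 28. In females the counts were 31 in female C, 38 in female A, 39 in female E, 42 in female D and 50 in female B. By this count male B was the lowest male array and female B the highest female array, and the highest male array and the lowest female array stood close together. The median deviation ran from -0.0963 in male B to -0.0016 in male A, and from 0.0018 in female C to 0.0878 in female D. All autosomal genes also lay lower in males on this measure, at -0.01 ± 0.01 against 0.02 ± 0.01 in females (SD, n = 5 each). Of these 9765 genes, 46.9% lay above their own mean in male B and 55.9% in female B. The pattern was not particular to the members. Of 58 autosomal subunit genes of oxidative phosphorylation, 8 lay above their own mean in male B and 52 in female B.

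**Figure D4:**
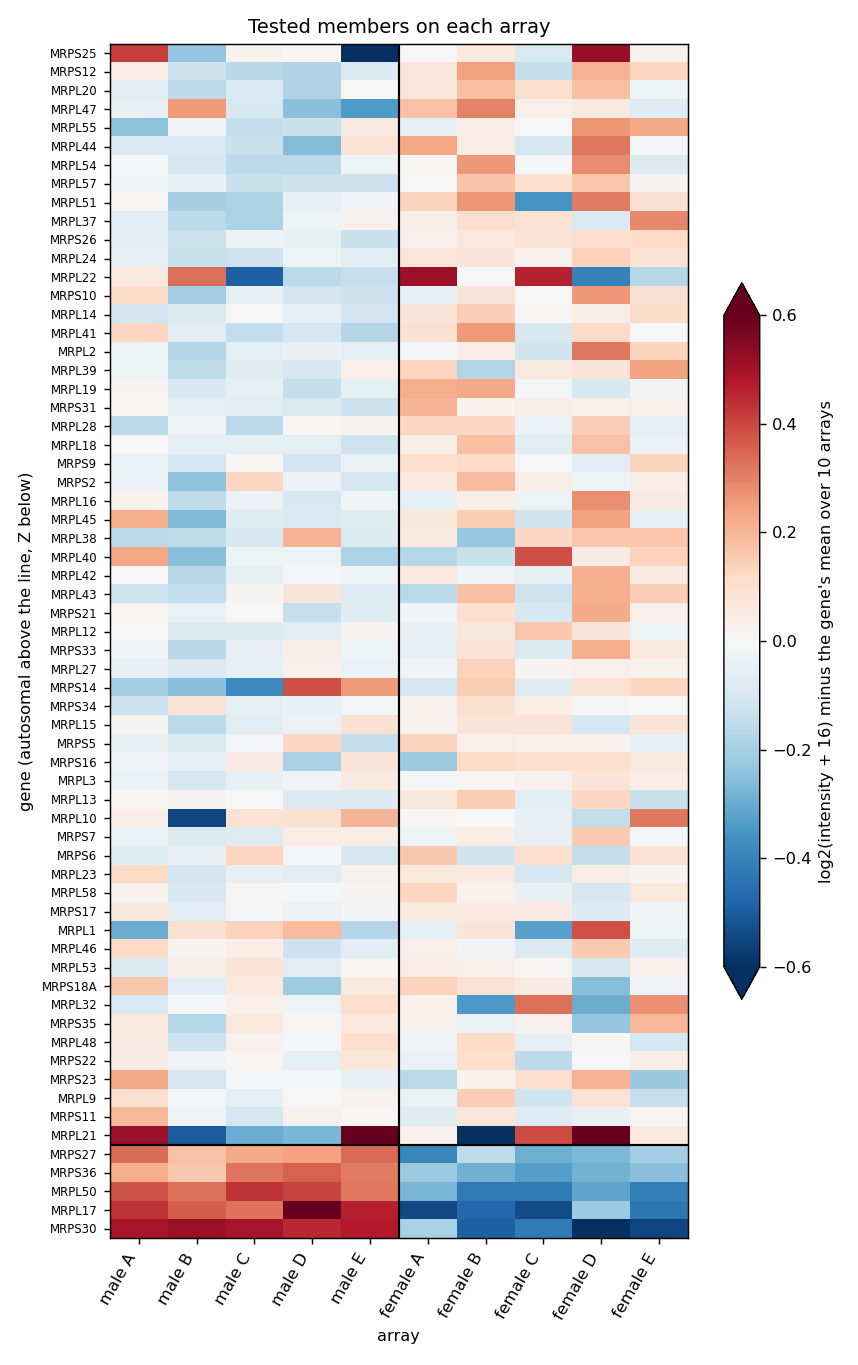
Each tested member (rows, autosomal above the horizontal line and Z below it) on each array (columns, males left of the vertical line), as log2(intensity + 16) minus the gene's mean over 10 arrays, red for higher and blue for lower, with colours saturated beyond 0.6. The 5 Z rows are red in each male and blue in each female, while the autosomal rows are mostly pale and mixed, with 7 of 59 above their mean in male B and 50 in female B. Of all autosomal genes, 46.9% lay above their mean in male B and 55.9% in female B.

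The proteins that the mitochondrial ribosome helps to make work beside subunits encoded in the nucleus, and those on autosomes had small ratios too. Of 58 autosomal subunit genes of oxidative phosphorylation, none was called by limma, where 0.164% of all autosomal genes were called in either direction. Their median was -0.09 and 55 lay below 0, where 58.5% of all autosomal genes did. At an unadjusted p below 0.05 there were 11 of the 58, where 7.25% of autosomal genes were. Of the 4 such subunit genes on Z, 3 were called higher in males, with a median of 0.40, where 40.9% of all Z genes were called so. The cytosolic ribosomal proteins, 58 autosomal genes, had a median of -0.06, with 53 below 0 and none called by limma (1 with an unadjusted p below 0.05). Of 4 cytosolic ribosomal protein genes on Z, 1 was called higher in males, with a median of 0.12. On single arrays the cytosolic ribosome spread more widely, from -0.17 to 0.14 in males and from -0.08 to 0.14 in females, than the MRPL genes, which ran from -0.10 to -0.01 in males and from -0.01 to 0.12 in females. These lists share the arrays with the members and are not independent of them.

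**Figure D5:**
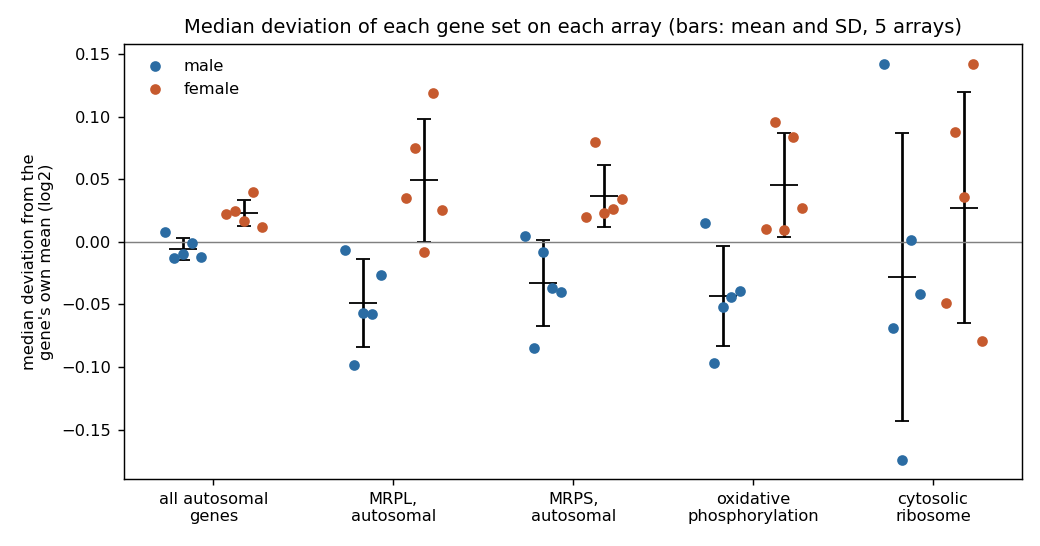
Median deviation from the gene's own mean over 10 arrays (log2 units, vertical axis) of 5 sets of genes on each array, males and females side by side, with bars for the mean and SD of 5 arrays. The MRPL, MRPS and oxidative phosphorylation sets lie lower in most male than female arrays, at -0.05, -0.03 and -0.04 against 0.05, 0.04 and 0.05 on average, while the cytosolic ribosomal proteins overlap widely.

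Among other genes of mitochondrial translation, the 2 called were on Z, where 40.9% of all Z genes were called higher in males. GFM2, an elongation factor G relative that releases the ribosome after termination, averaged 2369 in males and 1341 in females, a ratio of 0.77 ± 0.18 (limma adjusted p = 0.0481), with arrays that overlapped between the sexes. PTCD2, the neighbour of MRPS27, averaged 9810 and 6200, a ratio of 0.66 ± 0.07 (limma adjusted p = 2.28e-05). No autosomal gene of these lists was called: 0 of 8 translation factors (median -0.01, with 4 below 0), 0 of 22 assembly and rRNA modification genes (median -0.05, 16 below 0), 0 of 15 mitochondrial aminoacyl-tRNA synthetases (median -0.10, 11 below 0) and 0 of 14 genes of mitochondrial DNA and RNA maintenance (median -0.02, 9 below 0) by limma. At an unadjusted p below 0.05 the counts were 0, 1, 3 and 1, beside 7.25% of all autosomal genes. Of all autosomal genes, 58.5% lay below 0 and 0.164% were called in either direction, a share at which lists this short mostly hold no called gene.

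Among the genes of these lists with the largest ratios, MALSU1, a factor that binds the MRPL14 protein and keeps the subunits apart in human cells, was at -0.26 ± 0.07, with arrays that did not overlap (limma adjusted p = 0.158). RPUSD4, of rRNA modification, was at -0.18 ± 0.09. The release factor genes MTRF1L and MTRF1 were at -0.17 ± 0.10 and 0.15 ± 0.16. The synthetase genes TARS2, PARS2 and EARS2 were at -0.51 ± 0.34, -0.36 ± 0.14 and -0.35 ± 0.15. POLRMT, the mitochondrial RNA polymerase gene, had the largest ratio in these lists, 1.34 ± 0.39, with means of 2365 in males and 1174 in females, and did not pass (limma adjusted p = 0.164). MTPAP, which adds poly(A) tails in mitochondria, was at 0.16 ± 0.09 and TOP1MT at -0.11 ± 0.11.

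Subunit genes of the mitochondrial ribosome under other names had a median of -0.06 over 4, with none called by limma (0 at an unadjusted p below 0.05). Of all autosomal genes, 0.164% were called in either direction. PTCD3 was at -0.11 ± 0.06, DAP3, a GTP-binding small subunit protein, at -0.07 ± 0.07 and CHCHD1 at -0.05 ± 0.08. Of 10 regulators of mitochondrial biogenesis, 8 lay below 0, where 58.5% of all autosomal genes did. None was called by limma (2 at an unadjusted p below 0.05), and the median was -0.08. The coactivator genes PPARGC1B and PPRC1 were at -0.65 ± 0.29 and -0.35 ± 0.14, and PERM1 at -0.16 ± 0.12 (each above a limma adjusted p of 0.40).

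Markers of the cell types of the heart were read beside these values. The 12 cardiomyocyte markers were all above the filter, with 11 of 12 ratios below 0 (58.5% of all autosomal genes) and a median of -0.06. By limma 1 of these markers was called, higher in females, where 0.164% of autosomal genes were called in either direction. The summed intensity of the 12 was 1087030 to 1394160 in males and 1139330 to 1387940 in females. All 6 erythroid markers had ratios below 0, with a median of -0.15, none called, and summed to 396199 to 579450 in males and 455174 to 577928 in females. Endothelial (median -0.09 over 8 autosomal genes), epicardial (-0.06 over 5) and neural (-0.06 over 4) lists lay below 0, and smooth muscle (0.05 over 5), fibroblast and matrix (0.06 over 8) and leukocyte (0.05 over 6) lists above it. Summed levels overlapped between the sexes in all 9 lists. Of 7 liver and lung genes, FGA, FGB, NKX2-1 and SFTPA1 were under the filter, as were ACTA2 of smooth muscle and CD3E of leukocytes. The part of cell composition in the small ratios of the autosomal members was not tested. The 3′ minus 5′ log2 signal of the actin control ran from 0.63 to 0.81 in males and from 0.55 to 0.81 in females, and its part was not tested either.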

How the data were processed

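Gene expression was measured in 10 pools of embryonic chicken heart RNA, 5 male and 5 female. The authors deposited 1 linear intensity for each probe set on an array, from 0.724 to 283413, with array medians of 605 to 735. The software that made them was not given in the sources used here. In the deposited intensity values the mean after trimming 2% at each end was 2500.5 to 2500.6 on each array, so the arrays had been scaled to 1 level. No detection calls were used, and precision is limited by having 5 arrays per sex.

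Of 38535 probe sets, 27178 had 1 gene symbol in the platform annotation, which can be old, 177 had several and 11180 were not listed there. All 67 members matched the RefSeq gene table of GRCg7b by gene ID. The values name no genome build, so no coordinates are given.

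Control probe sets (96) were dropped, as were the dimmest 40% of the others by mean log2 level. Males and females were compared as log2(intensity + 16) in limma 3.58.1 (lmFit, eBayes with a variance trend, R 4.3.3), adjusting over all 23063 probe sets. The procedure was tested on simulated data with independent noise for each probe set, so shifts shared by sets of genes were not covered. Ratios understate changes of dim probe sets. Named members were, by rule, those on Z, called, not overlapping between the sexes, with the 8 lowest or 8 highest autosomal ratios, or with probe sets differing by over 0.4, and from each list of mitochondrial genes the called genes and 3 largest ratios. Members, lists and tests were chosen with earlier results of these data known. Alternatives were the replicate block, quantile normalization, autosomal centring, other filters and pseudocounts, averaging probe sets per gene, no variance trend, each array left out and, added later, ranking probe sets by mean intensity, MRPS18A in the large subunit and MRPS36 left out.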

Additional observations from a re-analysis of the deposited data

Results flagged for a closer look

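Of 52 groups of 5 arrays (26 named members in each sex), 5 held an array far from the other 4, where chance gives about 1 in 20 groups. Far meant a gap to the nearest array of more than 0.71 of the group's range. The groups share arrays and some members were named for their extreme ratios, so the groups are not independent. MRPS31 measured 24792 in female A and 21788 to 22103 in the other females, and without female A its ratio was -0.09. MRPS25 measured 4065 in female D and 2648 to 2944 in the others. MRPS23 measured 9095 in male A and 7231 to 7707 in the others. MRPS35 was low in male B, at 8386 against 9495 to 9859, and MRPS16 was low in female A, at 5748 against 6943 to 7241. No Z member had such an array.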

How the results depend on the processing

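In each of the 20 refits of the comparison, the same 5 Z members were called and no autosomal member was. Each Z member kept its direction, with ratios from 0.49 to 0.55 for MRPS27 and from 0.90 to 1.04 for MRPS30, and limma adjusted p of at most 0.0035 in these refits. The median of the autosomal members ran from -0.11 to -0.08 and that of all autosomal genes from -0.03 to -0.01. With the letter as a replicate block the 5 calls and the median of -0.10 were as before, and 405 in place of 407 probe sets were called. Same-lettered arrays deviated together weakly, with correlations of 0.177, 0.0573, 0.0025, 0.1003 and 0.207 for A to E. The highest correlations with another letter were -0.0085, 0.037, 0.045, 0.092 and 0.059, so the same-letter value was the higher for A, B, D and E. The labels do not say whether the letters mark a shared batch. Neither the main fit nor the exact tests of pairs of Z members took the letters as pairs. With MRPS36 left out, the median of the Z members was 0.81. Leaving out 1 array gave a median of the small subunit members from -0.094 to -0.053. Autosomal ratios near 0 changed sign. After quantile normalization MRPS35 was at -0.0029 and MRPL32 at -0.00079. Averaged over all their tested probe sets, MRPL20 was at 0.28 and MRPS16 at 0.17, since some dimmer probe sets had higher ratios. Leaving out 1 array gave ranges of -0.37 to 0.36 for MRPL21, -0.0017 to 0.075 for MRPS11, -0.0073 to 0.064 for MRPL9, -0.033 to 0.076 for MRPS23, -0.017 to 0.049 for MRPS22, -0.0056 to 0.052 for MRPL48, -0.047 to 0.061 for MRPS35 and -0.082 to 0.087 for MRPL32. Between Z members, it gave -0.19 to 0.034 for MRPL17 minus MRPS30 and -0.068 to 0.0092 for MRPS27 minus MRPS36. Other causes were not tested. MRPL21 was not tested with the strictest filter, and values near background limit the dim probe sets.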
